A study of Mus musculus with 2 samples.

Results

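The transcripts described here are the annotated, spliced transcripts of the mouse whose exons sum to 5000 bases or more and that received at least 1 long read in gastrocnemius muscle. They were chosen from both transcript tables by 3 properties alone: the class given to annotated transcripts, a length of at least 5000 bases and at least 2 exons, with the spike-in RNAs left out. Replicate 1 held 1680 of them and replicate 2 held 1777, and together they came to 2038 of the 18511 annotated spliced transcripts with a read. They belonged to 1805 genes, of which 1610 had 1 such transcript, and 2000 were annotated as protein coding transcripts.

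Each library started from 2 µg of total RNA of the gastrocnemius, a muscle of the calf, and the mice were females 2 months old. The strain is B6CASTF1/J, from The Jackson Laboratory, and no treatment or mutation is named. Animal 3 gave replicate 1 and animal 4 gave replicate 2, but the labels give both the same donor identifier, and only the animal numbers tell the 2 animals apart. The labels define 1 group, so every test below compares these 2 libraries and p-values cover counting error only. The libraries held 1349298 and 1359923 reads. The 8 fast muscle markers examined (Acta1, Ckm, Mylpf, Tnnc2, Tnnt3, Tnni2, Pvalb and Myl1) had 183789 and 182538 reads in all.

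Muscle fibres are built from very large proteins. Myosin heavy chains form the motor of the thick filament, giant scaffold proteins hold the sarcomere in register, and calcium channels and laminin-linked complexes tie the membrane to contraction. A long-read library reads an RNA from its 3' end as 1 molecule, so a read that stops before the 5' end is still placed in its gene, as a model that holds only the 3' part of the annotated exon chain. Such models are called 3'-part models here. An RNA that itself begins downstream of the annotated 5' end would give the same model, and these cases were not told apart.

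The deposited length of an annotated transcript is that of its annotation, not that of its reads. It differed from the summed exons of GENCODE M21 in 0 annotated spliced transcripts. A read is placed on an annotated transcript when it holds its whole chain of introns, and its first and last exons may be cut short. The summed exons between the first and the last, called inner exons below, are therefore the least length that was read. Only 12 of the 2038 long transcripts (0.589%) shared their intron chain with a shorter annotated transcript.

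The exon junctions printed next show the 2 ways in which a transcript reached 5000 bases. Each line gives 60 bases of coding sequence from the GENCODE M21 transcripts (mm10), 30 on either side of a junction, in lower case before it and in capitals after it. The first 3 are the same junction in 3 fast myosin heavy chains, 13 junctions from the 3' end. It is shown because it follows the longest inner exon of each chain, of 390 bases, in which 3'-part reads of all 3 began.

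Myh1-203, exon 27 to 28, chr11:67215278-67215307 and chr11:67215841-67215870, plus strand: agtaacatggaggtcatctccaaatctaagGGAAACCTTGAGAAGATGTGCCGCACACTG
Myh2-203, exon 27 to 28, chr11:67189679-67189708 and chr11:67190307-67190336, plus strand: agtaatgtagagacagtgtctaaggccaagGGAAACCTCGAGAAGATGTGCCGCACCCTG
Myh4-202, exon 25 to 26, chr11:67253514-67253543 and chr11:67254000-67254029, plus strand: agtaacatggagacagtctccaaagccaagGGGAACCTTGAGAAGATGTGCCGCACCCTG

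Over these 60 bases Myh1-203 and Myh2-203 were identical at 46, and Myh4-202 was identical to either at 52. The next pair come from Cmya5 (myospryn) and Flnc (filamin C). Only junctions inside the coding sequence were considered, and of these the one at which 3'-part reads most often began is shown. Such starts were 192 of 248 and 255 of 297 3'-part reads in Cmya5-201, and 23 of 202 and 10 of 147 in Flnc-202. The junctions lie 2173 and 4963 bases from the annotated 3' ends.

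Cmya5-201, exon 2 to 3, chr13:93089120-93089149 and chr13:93084611-93084640, minus strand: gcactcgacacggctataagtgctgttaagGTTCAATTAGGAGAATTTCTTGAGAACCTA
Flnc-202, exon 21 to 22, chr6:29447963-29447992 and chr6:29448558-29448587, plus strand: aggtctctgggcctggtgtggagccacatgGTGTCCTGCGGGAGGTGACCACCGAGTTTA

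The last group are junctions into the last exon of transcripts that owe their length to that exon. A read that crosses every junction up to this one counts as a read of the whole transcript, however far it ran into the exon whose first 30 bases are in capitals.

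Glo1-206, exon 5 to 6, chr17:30596374-30596403 and chr17:30594197-30594226, minus strand: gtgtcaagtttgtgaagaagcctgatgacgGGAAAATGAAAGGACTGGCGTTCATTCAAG
Ppp2ca-201, exon 6 to 7, chr11:52121022-52121051 and chr11:52121902-52121931, plus strand: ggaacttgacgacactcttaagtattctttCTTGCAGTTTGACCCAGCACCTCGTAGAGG
Pnpla8-201, exon 9 to 10, chr12:44308085-44308114 and chr12:44311325-44311354, plus strand: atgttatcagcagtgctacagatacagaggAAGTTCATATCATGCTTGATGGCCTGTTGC
D10Wsu102e-201, exon 3 to 4, chr10:83364486-83364515 and chr10:83365704-83365733, plus strand: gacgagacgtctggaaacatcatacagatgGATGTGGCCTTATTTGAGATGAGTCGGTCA

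The last exon measured 9291 bases in Glo1-206, 5877 in Ppp2ca-201, 11208 in Pnpla8-201 and 122802 in D10Wsu102e-201.

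The long transcripts held a small part of the reads. In replicate 1 they had 41464 of 818509 annotated spliced reads, or 5.07% (95% Wilson interval 5.02 to 5.11), and in replicate 2 they had 51587 of 818693, or 6.30% (6.25 to 6.35). The mean was 5.68% ± 0.874 (SD, n = 2). The difference was larger than the counting intervals and was smaller without Myh7, the slow myosin heavy chain, at 5.03% and 5.89%. Of all reads in the libraries they held 3.07% and 3.79%. Reads are counted 1 per molecule and were not divided by length.

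Most long transcripts were read a few times. The median was 4 reads in each library, 25.2% and 24.4% of those seen had a single read, and 62 and 73 had at least 100. Of the 2038, 1419 (69.6%) had a read in both libraries. Detection was close to that of transcripts of 2000 up to 5000 bases. GENCODE M21 lists 6784 spliced transcripts of this length, 30.04% of which had a read, against 32.6% at 4000 up to 5000 bases and 25.8% at 2000 up to 3000. Among transcripts of genes with any read these shares were 41.8%, 43.7% and 38.1%.

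**Figure D1:**
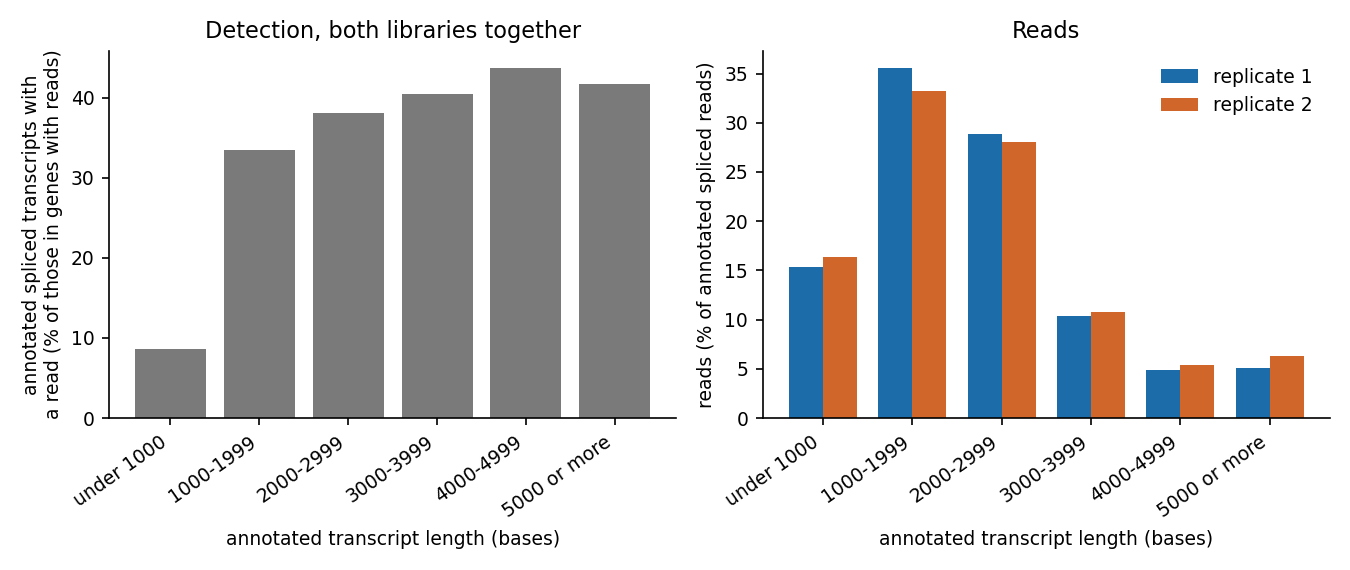
Detection and reads by annotated transcript length. Left, bars give the annotated spliced transcripts with a read in either library as a percent of those in genes with reads. Right, bars give the percent of annotated spliced reads in each library. The bin of 5000 bases or more reaches 41.8% on the left and 5.07% and 6.30% on the right.

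The annotated length lay mostly in the last exon. The long transcripts had a median length of 6225 bases, but a median of 2186 bases of inner exons, 2667 coding bases and 3344 bases of 3' untranslated region (UTR), the stretch after the stop codon. The 3' UTR took more than 50% of the length in 1092 of the 2009 with a coding sequence (54.4%), against 28.8% of the shorter annotated transcripts with a read. The inner exons alone reached 5000 bases in 252 transcripts (12.4%) of 207 genes. In 952 (46.7%) they summed to less than 2000 bases.

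The 252 transcripts whose inner exons alone reached 5000 bases held 27.5% and 34.6% of the long transcripts' reads. Most of those reads were on the sarcomeric myosin heavy chains, since without them the shares were 5.93% and 7.16%. These 252 were chain-like in structure, with medians of 40 exons, 6135 coding bases and a 3' UTR of 691 bases. In contrast, the 480 transcripts with under 1000 bases of inner exons had medians of 5 exons, 1081.5 coding bases and a 3' UTR of 4504 bases.

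The 3' sequence was searched for 1 motif. The letters AATAAA, the usual signal for cleavage and polyadenylation, were searched on the transcript strand only. They stood in the last 50 bases of 68.6% of the long transcripts and 54.9% of the shorter ones with a read. A match more than 500 bases before the end, within the last exon, was found in 82.4% of the long transcripts with under 2000 bases of inner exons, 21.4% of those with 5000 or more and 19.8% of the shorter transcripts. The last exons searched differ in length. Their median was 5108.5 bases in the long transcripts with under 1000 bases of inner exons and 4231.5 at 1000 up to 2000. It was 833 in those with 5000 or more and 810 in the shorter transcripts, so the first share covers a longer stretch of sequence. A match is a description of the sequence and was not tied to any read end.

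**Figure D2:**
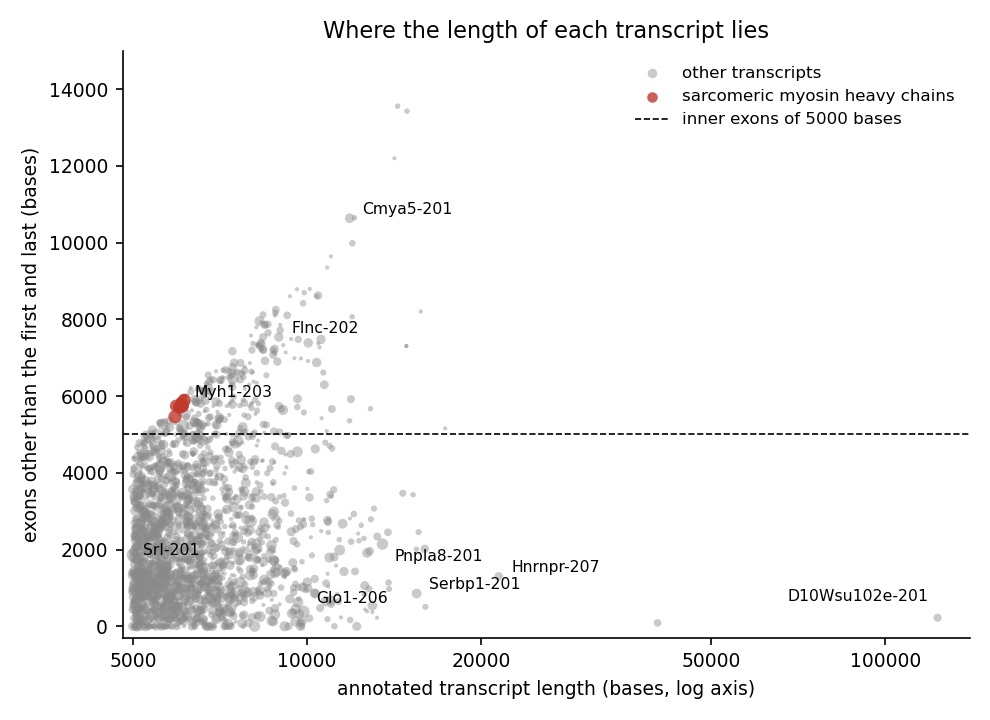
Annotated length (log axis, bases) against the exons other than the first and last (bases) of each of the 2038 long transcripts, with point size growing with the logarithm of the summed reads. The sarcomeric myosin heavy chains lie above the dashed line at 5000 bases, while transcripts such as Glo1-206, Hnrnpr-207 and D10Wsu102e-201 are long with few inner exon bases.

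The myosin heavy chains led the list. These motor proteins of the thick filament held 22.9% and 29.5% of the long transcripts' reads. Long transcripts of Myh1, Myh2, Myh3, Myh4, Myh6, Myh7 and Myh8 had a read. Myh1-203, of the fast type IIx chain (11:67200052-67224575, 6081 bases, 40 exons, 5749 bases of inner exons), had 4897 and 5566 reads. It was higher in both libraries than any other long transcript. Over models of every kind the Myh4 gene had more reads than the Myh1 gene, 12708 and 16318 against 8519 and 10134. The other 2 Myh1 transcripts had 728 and 921 reads (Myh1-201) and 356 and 411 reads (Myh1-202). The 3 share the coding length of 5826 bases, and each pair differed in 1 to 3 introns. All 38 introns of Myh1-202 are also in Myh1-203, so a Myh1-203 read without its remaining intron can be placed on Myh1-202.

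Myh4, the IIb chain, had 1462 and 2894 reads on Myh4-202 and 499 and 581 on Myh4-201. Myh4-202 was 1.96-fold higher in replicate 2 (1.84 to 2.09, adjusted p = 6.05e-101, Fisher's exact test with Benjamini-Hochberg adjustment). All 37 introns of Myh4-202 are also in Myh4-201, which has 1 more. A Myh4-201 read that lacks this intron can be placed on Myh4-202, and the part of such reads in the fold was not tested. Myh2-203, of the IIa chain, had 937 and 930 reads, a ratio of 0.985 (0.899 to 1.08) that did not pass the test (adjusted p = 0.988 by Fisher's exact test). Myh7-201, of the slow chain at 14:54970684-54994626, had 315 and 3555 reads. That was 11.2-fold higher in replicate 2 (9.98 to 12.6), the largest rise among the long transcripts called. The slow-fibre calcium pump gene Atp2a2, with no long transcript read, had 191 and 1082 reads in the same libraries. In bulk muscle, fewer cells of a type and less RNA per cell cannot be told apart, and the part of fibre type in this result was not tested. Reads of the developmental chain Myh3-202 (4 and 12) and the cardiac chain Myh6-201 (4 and 5) were few. Heavy chain paralogues are alike, so short 3'-part reads of them are less certain than whole chains.

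**Figure D3:**
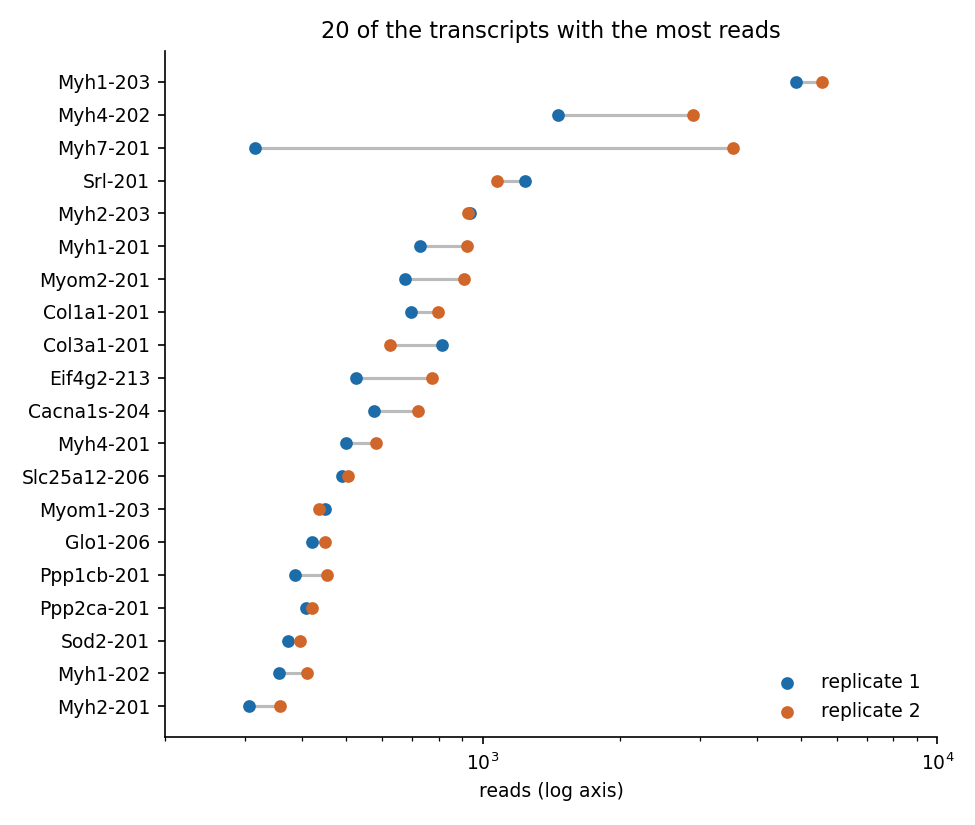
Reads (log axis) of 20 of the long transcripts with the most reads, by mean CPM, 1 point per library joined by a grey line. Myh7-201, at 315 and 3555 reads, has the widest gap between libraries, and Myh1-203 has the most reads.

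Giant and M-band proteins of the sarcomere formed another group. Of 13 listed sarcomere giants with an annotated transcript of this length, 9 had at least 1 read on one. Myom2-201, of myomesin 2, an M-band protein, had 675 and 910 reads, 1.34-fold higher in replicate 2 (1.21 to 1.48, adjusted p = 7.61e-07 by Fisher's exact test). Myom1-203, its partner, had 450 and 436 on its most-read long transcript, which did not pass the test. Its other transcript Myom1-202 had 11 and 46, 4.15-fold higher in replicate 2 (2.17 to 7.92, adjusted p = 1.61e-04 by Fisher's exact test). Nrap-202, of a protein of the myotendinous junction with 42 exons, had 104 and 102 reads. Xirp1-201 had 77 and 70, Cmya5-201 had 18 and 36, and Myom3-201 had 8 and 6. Of the 8 tested in this group 2 were higher and 0 lower by Fisher's exact test, with 1 called by edgeR. Over all 8268 annotated spliced transcripts tested, 5.77% were called by Fisher's exact test, 2.59% higher and 3.18% lower. The group's median log2 ratio was 0.11, against -0.01 over all and 0.18 over the long transcripts tested. The Z-disc and actin-binding group had 7 genes with such reads out of 10, and 0 of its 4 tested transcripts were called by Fisher's exact test or by edgeR, with 1 at an unadjusted p under 0.05. Among its members were Mypn-201 (149 and 191), Synpo2-201 (128 and 149), Myo18b-201 (43 and 64) and Flnc-202 (21 and 21).

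The membrane and triad genes, which couple excitation to contraction, gave some of the deepest long transcripts. Cacna1s-204, of the voltage sensor of the muscle calcium channel (1:136052750-136119530, 6104 bases, 5227 of inner exons), had 577 and 720 reads. It was 1.24-fold higher in replicate 2 (1.11 to 1.38, adjusted p = 0.00452 by Fisher's exact test). Srl-201, of sarcalumenin, a calcium-binding protein of the sarcoplasmic reticulum, had 1236 and 1074 reads and was lower in replicate 2 (0.862-fold, 0.794 to 0.936, adjusted p = 0.0101 by the same test). It lies exactly on the length limit, at 5000 bases, of which 3057 are its last exon. Of 10 listed triad genes with long annotation, 5 had a long transcript with a read, and 2 of those transcripts could be tested.

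In the dystrophin complex and costamere group, which links the fibre to its basal lamina, 7 of 15 genes with long annotation had such a read. Lamb2-201, of the laminin chain, had 117 and 157 reads, Lamc1-201 had 34 and 45, and Dag1-204, of dystroglycan, had 24 and 19. Vcl-201, of vinculin, had 18 and 12, Dysf-204, of the membrane repair protein dysferlin, had 10 and 14, and Tln1-201, of talin, had 5 and 8. Of the 8 tested, 0 were called by Fisher's exact test or by edgeR, with 1 at an unadjusted p under 0.05. Their median log2 ratio was 0.39, against -0.01 over all transcripts tested and 0.18 over the long transcripts tested. Ion channel and junction genes had 6 of 11, and spectrins, ankyrins and cytolinkers 9 of 14, for example Sptb-201 with 17 and 32 and Synm-201 with 37 and 18.

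Metabolic and signalling genes held both kinds of length. Phka1-201, the regulatory subunit of phosphorylase kinase with 3297 bases of inner exons, had 230 and 312 reads. Ppp1r3a-201, which targets a phosphatase to glycogen, had 31 and 99, or 3.17-fold (2.12 to 4.73, adjusted p = 1.69e-07 by Fisher's exact test), with 187 bases of inner exons in 6965. Hk2-201, a hexokinase, had 97 and 81. All 5 listed glycogen genes with long annotation were read. By Fisher's exact test 2 of 5 tested transcripts were higher, beside 2.59% of all transcripts tested, and edgeR called 1. Slc25a12-206, a mitochondrial aspartate and glutamate carrier, had 489 and 505 reads. Of the insulin and growth list 17 of 19 genes had a long transcript read, among them Prkaa2-201, the catalytic subunit of AMP-activated kinase (40 and 66), Irs1-201 (32 and 63), Foxo1-201 (22 and 41) and Tbc1d1-201 (62 and 22). Of its 12 tested transcripts 1 was higher and 1 lower by Fisher's exact test, beside 5.77% called of all transcripts tested, and edgeR called 1. The median log2 ratio was 0.82, against -0.01 over all and 0.18 over the long transcripts tested. Glo1-206, Ppp1cb-201, Ppp2ca-201 and Sod2-201, all with under 1000 bases of inner exons, had 421 and 450, 386 and 455, 408 and 422, and 372 and 396 reads.

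Collagens, the fibres of the extracellular matrix, are made mainly by fibroblasts. Col1a1-201 had 696 and 799 reads and Col3a1-201 had 812 and 625. Col3a1-201 was 0.764-fold (0.688 to 0.848) in replicate 2, with adjusted p = 2.33e-05 by Fisher's exact test, while the difference in Col1a1-201 did not pass (adjusted p = 0.136, same test). Col4a1-201 had 84 and 89, and Col4a2-201 had 44 and 49. Of the extracellular matrix list 13 of 20 genes with long annotation had such reads.

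The longest transcript with reads in both libraries was D10Wsu102e-201, annotated at 123179 bases with 224 of inner exons, and had 6 and 8 reads. D1Ertd622e-201 (40378 bases, 90 of inner exons) had 3 and 6. Hnrnpr-207 (21452 bases) had 11 and 11, Serbp1-201 (15474) had 41 and 30 and Pnpla8-201 (13507) had 200 and 244. These lengths are annotated and do not say how much of the last exon was read. The largest inner exons of any long transcript summed to 13556 bases. Among those with at least 2 reads per library the order by inner exons was different from that by length. Cmya5-201 had 10635 bases of them, and Crybg3-205, with 5 and 12 reads, had 8621. Vwf-203, of the von Willebrand factor of the vessel wall, had 8253 with 7 and 3 reads. These were chosen after their values were seen. At the limit of the rule, Fbxw8-201 (56 and 66 reads) and Mrpl19-201 (11 and 12) measured 5000 bases. Just outside lay Tom1l2-206 at 4999 with 39 and 47 reads, Rfc2-201 at 4995 with 32 and 25 and Sh3bp4-201 at 4995 with 9 and 11.

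How long reads get can be taken from the models that match no annotated transcript, since their lengths come from reads. Spliced models of this kind of 5000 bases or more numbered 4987 (9.19%) and 6711 (12.3%), with 20556 and 27452 reads. The longest measured 15505 bases in replicate 1, in Herc2, a large ubiquitin ligase, and 17912 bases in replicate 2, in Ttn. Those of 10000 bases or more numbered 67 and 153. Myh4 had 5994 and 6587 such reads, Srl 2033 and 2124 and Myh1 938 and 1497.

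The genes with a long transcript also had a large share of 3'-part models. Of their reads, 20449 of 95827 in replicate 1 (21.3%) and 24418 of 115881 in replicate 2 (21.1%) were on such models, a mean of 21.2% ± 0.189 (SD, n = 2). In the 9599 genes whose annotated spliced reads were all shorter than 5000 bases the shares were 5.57% and 5.97%. The share was thus higher in genes with a long transcript in both libraries, and 2 animals cannot give a p below 0.5 in a two-sided sign test. The 2 sets of genes were not matched for inner exons, whose median was 2186 bases in the long transcripts and 682 in the shorter ones. Long annotated transcripts held 43.3% and 44.5% of the reads of their genes, so most reads of these genes were of other kinds. The median gene was lower than the pooled value. Over the 599 genes that reached 20 reads in both libraries the median share was 7.32% and 6.78%, against 2.82% and 2.63% in 4189 genes with shorter annotated reads. Without the sarcomeric heavy chains the pooled shares were 15.4% and 14.3%.

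The 3'-part share rose with the inner exons and not with the annotated length. In genes whose most-read long transcript had under 1000 bases of inner exons it was 4.35% and 4.86%. It was 6.02% and 6.40% at 1000 up to 2000 bases, 17.0% and 15.6% at 2000 up to 3000, 19.1% and 16.0% at 3000 up to 4000, 25.9% and 21.02% at 4000 up to 5000 and 38.8% and 36.9% at 5000 or more. Without the heavy chains the last bin, with 197 genes, stood at 39.2% and 34.5%. The rise was not particular to genes with a long transcript. Over all genes, by the inner exons of the most-read annotated spliced transcript, the share was 3.86% and 4.54% under 1000 bases. It was 5.90% and 6.23% at 1000 up to 2000 and 15.9% and 15.4% at 2000 up to 3000. Long transcripts held only 5.74% and 7.04% of the reads in the last of these 3 bins. A spliced 3' part can begin only upstream of a junction. Long transcripts with under 1000 bases of inner exons had a median of 5 exons, against 40 at 5000 or more. The part of this in the rise was not tested. By annotated length the shares were 21.6% and 22.4% at 5000 up to 6000 bases, 12.95% and 12.5% at 7000 up to 8000 and 22.8% and 24.9% at 10000 or more.

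**Figure D4:**
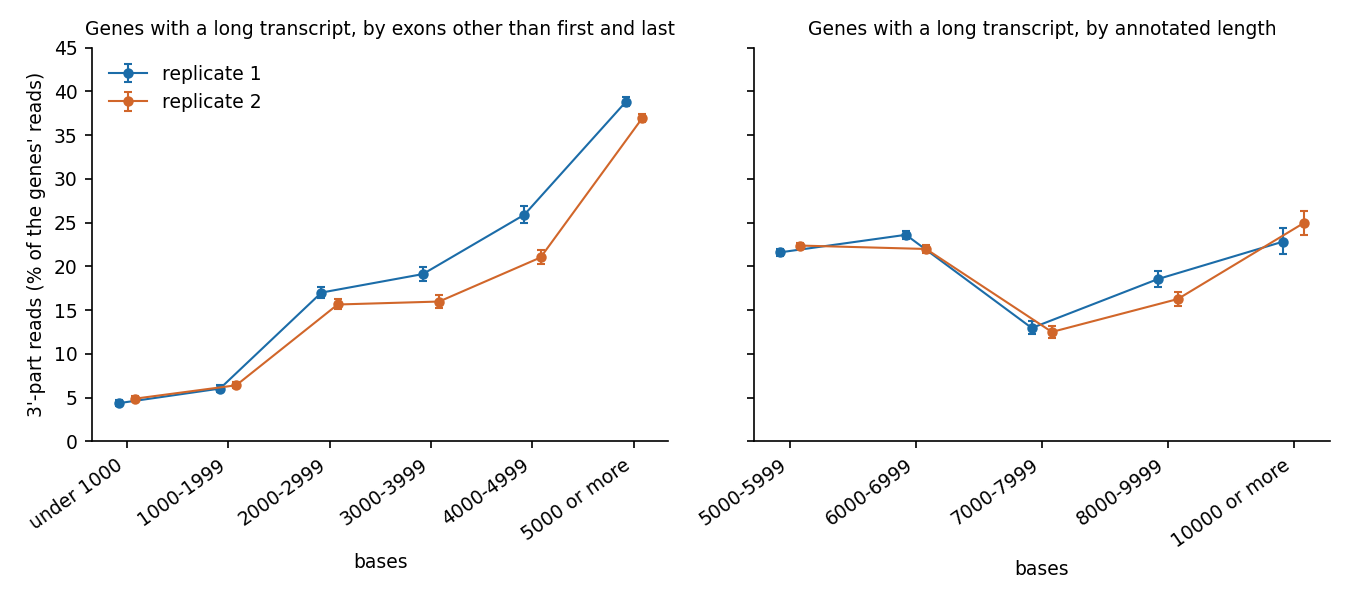
Reads on 3'-part models as a percent of all reads of genes with a long annotated transcript, by the inner exons of the most-read long transcript (left) and by its annotated length (right), both in bases. Points are the pooled shares of each library and bars are 95% Wilson intervals. The left panel climbs from 4.35% and 4.86% to 38.8% and 36.9%, and the right panel has no such climb.

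Genes differed widely around these values. Among the 286 genes that reached 50 reads in both libraries, the highest shares were 83.2% and 76.7% in Flnc (203 of 244 and 148 of 193 reads), 77.0% and 80.5% in Cmya5, 69.4% and 82.3% in Naca and 80.0% and 71.1% in Tln1. Myo18b had 79.1% and 71.8%, Prkab2 73.8% and 75.4%, Smarca4 62.5% and 75.3% and Alpk3 66.9% and 66.5%. Prkab2-201 has 763 bases of inner exons, and its 3'-part reads crossed a median of 6 of its 7 junctions. At the other end stood genes with 0 reads on 3'-part models in both libraries, among them Alkbh5 (0 of 189 and 0 of 214), Fbxo40 (0 of 303 and 0 of 282), Desi2 and Irf2bp2. Glo1 had 0 of 471 and 2 of 480. These chains are short, with 1 junction in Irf2bp2-201, 3 in Alkbh5-201 and Fbxo40-201, 4 in Desi2-201 and 5 in Glo1-206. A chain of 1 junction has no shorter spliced part, so a share of 0 is partly set by the definition.

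Among the heavy chain genes the share was 44.8% and 46.9% in Myh4, 50.4% and 51.1% in Myh2, 26.6% and 29.0% in Myh1 and 20.6% and 14.8% in Myh7. In Myh4-202, 150 and 2106 of these reads crossed only the last 2 junctions. The share was 3.56% and 3.60% in Srl, 18.4% and 13.4% in Col1a1, 11.5% and 8.25% in Col3a1 and 50.6% and 49.6% in Nrap. Between the libraries 7 of 599 genes differed by Fisher's exact test, 3 higher and 4 lower in replicate 2, beside 0.876% of all 5025 genes tested. Higher were Plec (12.4% to 23.1%), Synpo2 (18.4% to 28.1%) and Myh1. Lower were Ehbp1l1 (15.2% to 3.68%), Pde4dip (50.8% to 41.6%), Slmap (38.6% to 11.9%) and Cacna1s (25.9% to 19.0%). With annotated and 3'-part reads alone as the total, 2 genes were called.

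Following each read up its chain shows the same in bases. Of the reads that matched the intron chain of the most-read long transcript, whole or in part, 68.6% and 69.4% held it whole. Those crossing the first junction at least 1000 bases from the annotated 3' end came to 98.0% and 95.3%. The shares were 94.9% and 93.0% at 2000 bases, 88.0% and 87.8% at 3000, 80.8% and 82.0% at 4000 and 72.7% and 75.0% at 5000, over 1803 to 1465 transcripts that have such a junction. Distances are annotated, so an unread stretch of a last exon is counted in them. Every matched read crosses at least the last junction. The share therefore could not fall in a transcript whose last exon was longer than the distance. The long transcripts had a median last exon of 3662.5 bases, so the shares at the nearer distances are in part fixed by this.

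Single transcripts differed in this. Glo1-206 was held whole by 100% and 99.6% of its chain-matched reads, Srl-201 by 90.4% and 89.6%, Col1a1-201 by 81.1% and 85.7%, Myh7-201 by 78.8% and 84.7%, Cacna1s-204 by 71.9% and 79.0%, Myh1-203 by 69.5% and 66.7%, Nrap-202 by 22.6% and 22.9% and Myh4-202 by 20.9% and 28.1%. The Myh4 gene also had 4847 and 4977 reads on models with unannotated splice sites. These match no annotated chain and are outside the Myh4-202 share. Col1a1-201 and Nrap-202 have similar numbers of exons, 51 and 42, and far apart shares. These shares count as whole only the reads placed on the named transcript. Nrap has 3 long transcripts with 191 and 209 reads in all, of which Nrap-202 had 104 and 102, while Col1a1 has 1 long transcript. The part of this in the difference was not tested. In Cmya5-201 the 3'-part reads crossed a median of 11 of its 12 junctions, and 192 of 248 and 255 of 297 of them began inside exon 2, of 9310 bases, just before the junction printed above.

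**Figure D5:**
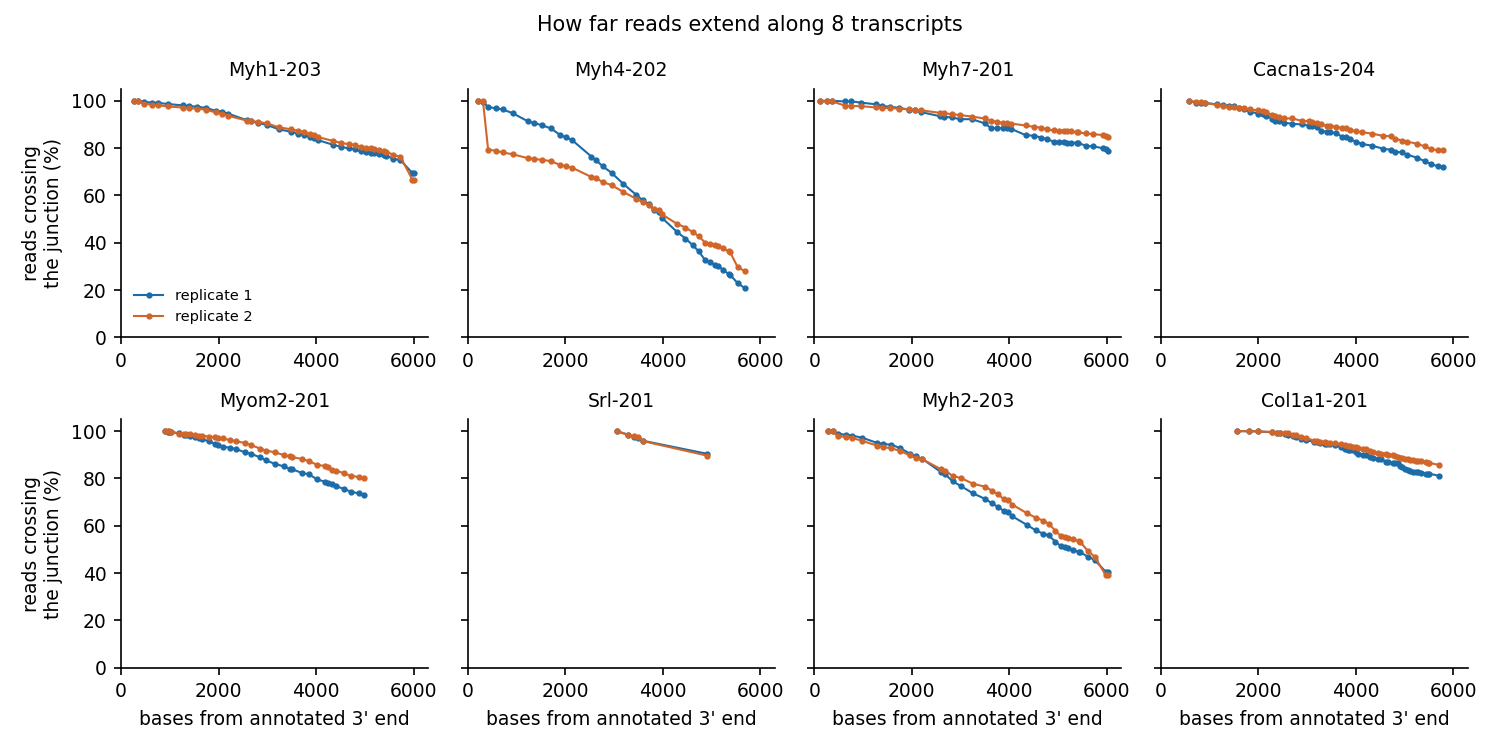
Percent of chain-matched reads that cross each junction (vertical axis) against the junction's distance from the annotated 3' end in bases (horizontal axis), in 8 long transcripts, 1 line per library. The lines of Srl-201 and Col1a1-201 end at 90.4% and 89.6% and at 81.1% and 85.7%, those of Myh4-202 at 20.9% and 28.1%.

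In the fast heavy chains 3'-part reads began all along the chain. The exon 13 junctions from the 3' end, of 390 bases, held the start of 197 and 172 such reads in Myh1, 132 and 102 in Myh2 and 479 and 400 in Myh4. That was 9.15% and 6.19% of the 3'-part reads matched to Myh1-203, 9.65% and 7.09% for Myh2-203 and 8.68% and 5.39% for Myh4-202. Counted per 100 bases of exon this was no peak. Myh2 had 33.9 and 26.2 starts per 100 bases there, against 50.9 and 81.7 in its exon 3, and Myh1 had 50.5 and 44.1 there, against 159.02 and 328.7 in its exon 3. Reads of Myh1 that began in exon 3, and lacked only the first 2 junctions, numbered 388 and 802.

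The largest muscle genes had no long transcript with a read. Ryr1, the calcium release channel, has 109 exons and 15183 coding bases. Its 3'-part models held 1009 of 1078 reads (93.6%) and 897 of 961 (93.3%), with a median model length of 2586 bases in both libraries. Its longest 3'-part models measured 14759 and 14838 bases and held 99 and 100 exons. Ttn, titin, with 105639 coding bases, had 202 of 381 reads (53.0%) and 351 of 471 (74.5%) on such models, a difference called by Fisher's exact test (adjusted p = 2.30e-08). Its median model length was 2806 and 5974 bases. Neb, nebulin, had 86 of 196 (43.9%) and 127 of 225 (56.4%). Its longest 3'-part models measured 9272 and 12626 bases.

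Whether a gene's longest coding transcript was read whole fell with its inner exons. Among genes that reached 20 reads in both libraries it was read in 434 of 545 (79.6%) at 2000 up to 3000 bases of inner exons, 158 of 210 (75.2%) at 3000 up to 4000 and 24 of 37 (64.9%) at 5000 up to 6000. At 8000 bases or more it was read in 3 of 17 (17.6%).

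Between the libraries 51 of the 817 long transcripts with at least 10 reads summed differed by Fisher's exact test, 6.24% of them beside 5.77% of all 8268 annotated spliced transcripts tested. The direction was uneven. Of the long transcripts 41 were higher and 10 lower in replicate 2, where over all transcripts tested 2.59% were higher and 3.18% lower. The median log2 ratio was 0.18 among the long transcripts and -0.05 among the shorter ones, on the scale of log2 (CPM + 1), where CPM is the read count scaled to a common library size. With 5000 or more bases of inner exons it was 0.43 over 84 tested, and with under 2000 it was 0.08 over 435. The edgeR exact test with an assumed dispersion of 0.01, which allows for spread between animals, called 12 of the long transcripts, 9 higher and 3 lower. These were Myh7-201, Myh4-202, Myom1-202, Ppp1r3a-201, Usp24-201, Qk-206, Hipk3-201, Kif5b-201, Rb1cc1-201, Tbc1d1-201, Spon1-201 and C4b-201, and every other call named here was lost under it. Unannotated models of 5000 bases or more were also the larger share in replicate 2, as given above. RNA quality is not given in the sources used here.

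Among those called, Usp24-201, of a deubiquitinase with 68 exons, had 7 and 34 reads (4.82-fold, 2.18 to 10.6), Sptbn1-201, of a spectrin, had 2 and 17, and Qk-206, of an RNA-binding protein, had 4 and 25. Aff4-201 (2 and 17) and Slco5a1-207 (2 and 16) were also higher. Eif4g2-213, of a translation factor, had 526 and 772, 1.46-fold (1.30 to 1.63). Lower were C4b-201, of complement C4, with 24 and 0 reads, at least 8.06-fold lower against a floor of 3 counts per library, and Spon1-201 with 36 and 3, 0.0827-fold (0.0270 to 0.253). Scd2-201, of a fatty acid desaturase, had 26 and 7, Tbc1d1-201 had 62 and 22, Zdhhc3-208 had 50 and 24 and Fbxo32-201, of the muscle ubiquitin ligase atrogin-1, had 92 and 48.

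Markers of some other cells had fewer reads in replicate 2. The 14 adipocyte and leukocyte genes had 1563 and 331 reads in all, with 11 lower in replicate 2 and 3 higher. The 14 nerve and Schwann cell genes had 469 and 46, with 11 lower and 1 higher, and 3 and 5 at 0. The other lists were more even. The 24 matrix genes had 2863 and 2763, with 12 lower and 11 higher. The 17 endothelial and smooth muscle genes had 401 and 373, with 10 lower and 7 higher. On long transcripts the adipocyte and leukocyte list had 30 and 22 reads, from Fasn-201 (26 and 20) and Mrc1-201 (4 and 2), and the nerve list had 4 and 2. The matrix list had 1707 and 1609 there, and the endothelial and smooth muscle list had 62 and 69. Their part in the long transcripts that were lower, C4b-201 and Scd2-201 among them, was not tested.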

How the data were processed

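Long-read RNA sequencing of gastrocnemius was measured in 2 libraries. The deposited tables give, per library, the raw, unnormalized count of reads for each transcript model, and its exons and length in bases. Reads were placed on mm10 with GENCODE M21, per the deposited notes, and the annotation's source is TALON. The platform, read filters and aligner are items not given in the sources used here; they could change which reads reach a model.

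The transcripts were chosen as stated at the start of the report. They and the gene lists were chosen with earlier results of these data known, so a direction seen there is not independent support. Inner exons, coding and untranslated lengths came from GENCODE M21, and 3'-part models are incomplete splice matches of the suffix kind. Junctions were taken from the deposited exon coordinates. CPM values used the library totals (1349298 and 1359923 reads). Log2 ratios added 1 to each CPM. Shares have 95% Wilson intervals and folds against 0 reads used a floor of 3 counts, both covering counting error only.

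Transcripts with at least 10 reads summed entered Fisher's exact test (two-sided) against all other reads, and genes reaching 20 reads in both libraries entered the same test of 3'-part against other reads. Benjamini-Hochberg adjustment ran over all 8268 transcripts or 5025 genes, with a threshold of 0.05. Both tests were tested on simulated data. Alternatives used edgeR 4.0.16 (R 4.3.3) with a dispersion of 0.01, and Python 3.11.15 with scipy 1.17.1 did the rest. Named were the 20 with the most reads, the 8 longest that had 2 reads or more in both libraries, the leading genes of each list, the 8 highest and 8 lowest 3'-part shares at 50 reads or more, the 6 largest and 6 smallest log2 ratios among those called and the 3 nearest on either side of the length limit. Not all are printed, and some genes are not reported here.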

Additional observations from a re-analysis of the deposited data

Results flagged for a closer look

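Reads outside the spliced transcripts described were found on annotated single-exon transcripts of 5000 bases or more, 622 reads in replicate 1 and 783 in replicate 2, which the report's comparisons do not use. They fell on 52 transcripts. Fem1a-201 (6801 bases) had 391 and 393 of these reads, and the nuclear long non-coding RNA Neat1-201 (20771 bases) had 37 and 164. A single-exon read carries no junction, so its assignment rests on position alone.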

How the results depend on the processing

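With a length minimum of 4500 bases the long transcripts held 7.25% of annotated spliced reads, with 18.8% on 3'-part models and 9.09% with inner exons of 5000 bases. At 6000 bases there were 1143 of them, with 3.18%, 25.7% and 20.6%. At least 2 reads in each library left 1088. Without the 10 transcripts with the most reads they held 3.90%, and without the heavy chains 4.24%. The 3'-part share was 29.8% of annotated and 3'-part reads alone, 24.3% with every incomplete splice match, 7.05% as a median over genes, 14.4% without the 10 genes with the most reads and 14.8% without the heavy chains. Weighted by reads, 31.0% had inner exons of 5000 bases, and 6.55% without the heavy chains. The runs without heavy chains or Myh7 were chosen after seeing the data. Leaving out each replicate gave 1680 to 1777 transcripts, 5.07% to 6.30% of reads, 21.1% to 21.3% on 3'-part models and 11.4% to 12.2% with such inner exons. The edgeR exact test with a dispersion of 0.01 called 12 long transcripts (9 higher, 3 lower), also 12 with TMM library sizes, so 21 of 103 named log2 ratios lost their call and none changed sign under these or annotated-read totals. With annotated and 3'-part reads alone 2 genes differed in 3'-part share. No paired analysis was possible because there is 1 group. With a median of 4 reads, most long transcripts were too shallow to test.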

Other observations

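Short 3'-part reads of Myh4 differed between the libraries at 1 place. Models that cross only the last 2 junctions, and so begin 314 bases or somewhat more from the annotated 3' end, held 150 of 5519 matched 3'-part reads in replicate 1 and 2106 of 7419 in replicate 2. The same class held 29 and 90 reads in Myh1 and 21 and 44 in Myh2. Of the reads crossing 3 junctions or more and matched to the most-read long transcript of Myh4, 21.5% and 35.3% held its whole chain. Reads placed on the other long transcript of Myh4, or on models with unannotated splice sites, are outside these shares. The class that crosses only the last 2 junctions was picked out after its values were seen and was not tested.

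Fibrillar collagens were unlike each other. Col1a1 and Col3a1 were mostly read whole, while Col1a2, with 52 exons and 4116 coding bases, had no long transcript with a read and 153 of 169 (90.5%) and 192 of 231 (83.1%) reads on 3'-part models. The longest of these Col1a2 models measured 5515 and 4905 bases and held 50 and 49 exons, and the median lengths were 3098 and 2628 bases. Xirp2, of a protein of the actin cytoskeleton in muscle, had 0 and 4 reads on its long transcript and 123 of 258 (47.7%) and 186 of 394 (47.2%) on 3'-part models. Lpin1-201, of a phosphatidate phosphatase, was held whole by 23.6% and 20.5% of its chain-matched reads, with the others crossing a median of 17 junctions.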
